A study of Mus musculus with 6 samples.

Results

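The 10 genes described here are p53 target genes known for growth arrest and stress responses other than cell death: Ccng1, Plk2, Btg2, Psrc1, Gtse1, Sesn1, Sesn2, Trp53inp1, Zmat3 and Phlda3. They were taken by gene symbol from a table of 42747 genes, each symbol matched 1 row, and all 10 were among the 18383 genes that passed the filter on low counts. Polyadenylated RNA of whole testes from late mouse fetuses (E16.5) was compared between 3 cKO mice and 3 WT mice, which the series design counts as separate animals. The series title places the study on CK1α in Sertoli cells, the somatic nurse cells of the cords, so cKO was read as a conditional knockout of Csnk1a1, the gene of this kinase. The sources used here give neither the Cre line, nor the deleted part of the gene, nor the alleles of the WT mice. The question put to these 10 genes was whether the transcripts of p53's arrest and stress programme differ between cKO and WT testes.

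The transcription factor p53 is held at low activity by the ubiquitin ligase MDM2 and its partner MDM4, and it accumulates and binds DNA when cells meet DNA damage or other stress. Its best known targets stop the cell cycle or start cell death, while others slow growth signalling, change RNA stability or feed back on p53 itself. CK1α is known as a kinase that marks β-catenin for destruction and that works with MDM4 to restrain p53. Several of the 10 genes also answer to other inputs: Btg2 and Plk2 are also rapidly induced by growth factors, Sesn2 is also a target of the stress factor ATF4, and Gtse1 and Psrc1 are also tied to mitosis.

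A p53 binding site is made of a pair of decamers separated by a short spacer. RefSeq promoter sequences of build GRCm38.p6, which cover 250 bases before and 50 after a transcription start, were at hand for 8 of the 10 genes (11 promoters); Zmat3 and Trp53inp1 were not among them. A pair of p53 decamers, whose pattern reads the same on both strands, with at most 2 mismatches in all, the C and G of each core kept and a spacer of at most 13 bases, was found for Ccng1, for 1 of the promoters of Sesn1 and for 1 of those of Gtse1. Of 32841 promoters of the same length, 4.09% held such a pair. The Ccng1 match had 1 mismatch and no spacer and lay at positions -195 to -176 from the start, and the Gtse1 match had 1 mismatch and no spacer and spanned the start itself (-1 to 19). The Sesn1 match had 2 mismatches and a spacer of 3 bases (-186 to -164). The sequences are shown because these are the genes with the motif near a start: Ccng1 was called below, and Sesn1 and Gtse1 were not. Capitals mark the match, spacer included.
Ccng1, chr11:40755287-40755536, minus strand, the 250 bases before the start: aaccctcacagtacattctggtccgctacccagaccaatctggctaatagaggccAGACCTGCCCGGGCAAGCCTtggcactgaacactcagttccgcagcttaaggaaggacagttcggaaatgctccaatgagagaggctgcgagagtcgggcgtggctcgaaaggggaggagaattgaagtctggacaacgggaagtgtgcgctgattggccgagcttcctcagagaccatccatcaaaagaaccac
Sesn1, chr10:41887233-41887295, plus strand: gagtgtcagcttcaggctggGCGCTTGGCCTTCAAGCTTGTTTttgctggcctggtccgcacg
Gtse1, chr15:85859945-85859964, plus strand: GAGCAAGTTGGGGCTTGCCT

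The promoters of Btg2 and Plk2 shared another motif, the cAMP response element TGACGTCA (the same on both strands), which was found in 1.79% of all promoters. It is shown in capitals because both genes are known to be rapidly induced by extracellular signals. A match to letters is a description of the sequence and not evidence of a bound site, and p53 sites outside these windows were not searched.
Btg2, chr1:134079298-134079337, minus strand: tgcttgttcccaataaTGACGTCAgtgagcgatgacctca
Plk2, chr13:110394966-110395005, plus strand: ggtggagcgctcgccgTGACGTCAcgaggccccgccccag

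In cKO testes, 6 of the 10 genes were higher than in WT testes and none was lower. Ccng1, Psrc1, Trp53inp1, Zmat3 and Phlda3 rose 2.12 to 2.68-fold, and Plk2 rose 1.47-fold. Btg2, Sesn1, Gtse1 and Sesn2 were not called. A gene was called at a Benjamini-Hochberg adjusted p under 0.05 from the quasi-likelihood test of edgeR, adjusted over all 18383 genes tested. By that rule 3.35% of all tested genes were called, 1.50% higher (276) and 1.84% lower (339), and 0.772% were higher by over 2-fold (142), as 5 of the 10 genes were. At an unadjusted edgeR p under 0.05, 7 of the 10 were higher and none was lower, beside 7.75% higher and 8.03% lower over all tested genes. DESeq2 and limma-voom each called 6 of the 10 higher and none lower. Over all genes, DESeq2 called 3.32% higher and 3.61% lower of the 15886 to which it gave an adjusted p, and limma-voom 1.46% higher and 1.82% lower of 18383. All cKO values lay above all WT values for 7 of the 10 genes, as they did for 10.7% of all tested genes, and the groups overlapped for the other 3. Over all tested genes the groups were apart for 21.6% in either direction. The median log2 fold change of the 10 genes was 0.82, beside 0.00 over all tested genes. The counts over the whole table moved with single libraries: leaving out cKO library 3 gave 134 higher and 170 lower, and leaving out WT libraries 1, 2 or 3 gave 105, 180 or 105 higher and 218, 190 or 167 lower.

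**Figure D1:**
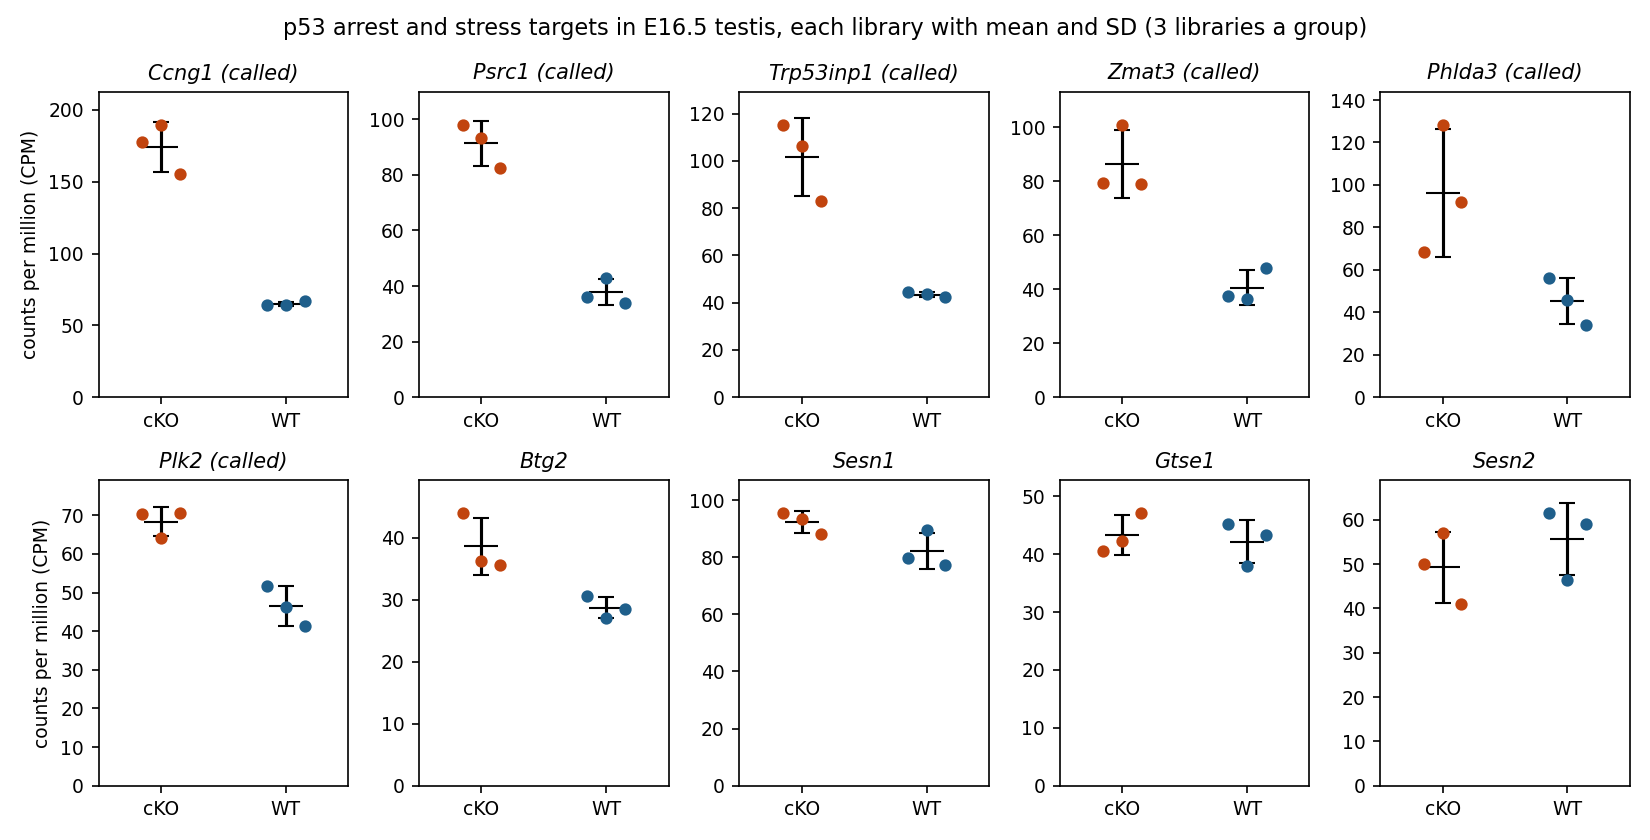
CPM (counts scaled by library total and TMM factor, linear axis from 0) of each of the 10 genes in every library, cKO on the left and WT on the right of each panel, with the mean and SD of 3 libraries. The groups are apart for the 6 called genes and for Btg2, and they overlap for Sesn1, Gtse1 and Sesn2.

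Values by library are given on the CPM scale, which divides counts by the TMM-adjusted library total, and follow the replicate numbers 1, 2 and 3. Library totals ran from 15092619 to 17431546 counts, and the counts of the 10 genes from 408 to 2854 in a library. Csnk1a1 itself held 396, 405 and 377 CPM in cKO libraries, against 371, 396 and 348 CPM in WT libraries, and a whole-gene count from a whole organ does not check the labels. The edgeR p-values set the difference between the groups against the spread between animals of a group, which is estimated with the help of all tested genes. In whole-organ RNA, a change in the number of cells of a type and a change in RNA per cell cannot be told apart.

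Among the regulators of the cell cycle, Ccng1 changed the most. It encodes cyclin G1, an unconventional cyclin that recruits the phosphatase PP2A and acts back on the p53 pathway (chromosome 11, 40599834 to 40606593, minus strand; all gene positions are C57BL/6NJ coordinates as deposited). Ccng1 stood at 177, 189.7 and 155 CPM in cKO libraries, against 64.1, 64.1 and 66.6 CPM in WT. Every cKO library was more than 2-fold above every WT library, and the WT values were nearly equal. The means were 174 ± 17.5 CPM in cKO testes, against 64.9 ± 1.47 CPM in WT (SD, n = 3 each), with a log2 fold change of 1.42 (SE 0.119, 95% confidence interval 1.16 to 1.68, edgeR adjusted p = 0.000115). Ccng1 ranked 18 among all tested genes by p.

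Plk2 encodes polo-like kinase 2, which takes part in centriole duplication and is induced by serum (chromosome 13, 116186460 to 116193378, plus strand). It stood at 70.4, 64.1 and 70.6 CPM in cKO libraries, against 51.7, 46.3 and 41.4 CPM in WT. The groups did not overlap, but the gap between the lowest cKO and the highest WT library was smaller than for Ccng1. The log2 fold change was 0.56 (SE 0.128, interval 0.28 to 0.84, edgeR adjusted p = 0.0389). This call was lost in 8 of 16 alternative fits: without any of 5 libraries (adjusted p = 0.0603 lacking cKO library 1, 0.161 lacking cKO library 3, 0.0718 lacking WT library 1, 0.119 lacking WT library 2 and 0.219 lacking WT library 3), with library totals alone and on both log2 FPKM scales.

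Btg2 belongs to the antiproliferative BTG/TOB proteins, which bind the CCR4-NOT deadenylase (chromosome 1, 142745774 to 142749724, minus strand). It stood at 44.0, 36.3 and 35.6 CPM in cKO libraries, against 30.6, 27.1 and 28.5 CPM in WT. The groups did not overlap, yet the difference missed the threshold: the log2 fold change was 0.43 (SE 0.14, interval 0.12 to 0.74, unadjusted p = 0.0112, edgeR adjusted p = 0.151). None of 16 alternative fits called it, with adjusted p from 0.0894 to 0.428.

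Psrc1 and Gtse1 both encode microtubule-binding proteins of dividing cells that were also described as p53-inducible in mouse cells. Psrc1, a spindle protein gene (chromosome 3, 114037274 to 114041665, plus strand), stood at 98.1, 93.4 and 82.5 CPM in cKO libraries, against 36.1, 43.0 and 34.0 CPM in WT. The lowest cKO library was far above the highest WT library. The log2 fold change was 1.28 (SE 0.135, interval 0.98 to 1.57, edgeR adjusted p = 0.000392), and all 16 alternative fits called it. Gtse1, a gene of the G2 and S phases (chromosome 15, 90022724 to 90039535, plus strand), stood at 40.6, 42.3 and 47.1 CPM in cKO libraries, against 45.2, 38.0 and 43.3 CPM in WT. Its groups overlapped almost fully, with a log2 fold change of 0.04 (SE 0.131, interval -0.25 to 0.33, edgeR adjusted p = 0.918). Its value turned to -0.023 without cKO library 3 and to -0.022 without WT library 2, so no direction is given for Gtse1. Of 24 other mitosis genes, none was called by edgeR or limma-voom and 2 were lower by DESeq2. Over all genes, edgeR called 1.84% lower, limma-voom 1.82% and DESeq2 3.61%. At an unadjusted edgeR p under 0.05, 12 of the 24 were lower and none higher, beside 8.03% and 7.75% of all tested genes. The list median was -0.27. The summed level of the 24 genes was 2398 to 2710.0 CPM in cKO testes, against 2878 to 3285 CPM in WT. The kinesin motor gene Cenpe (-0.51, edgeR adjusted p = 0.0609), the mitotic kinase gene Plk1 (-0.57, edgeR adjusted p = 0.0692), Kif23 (-0.36, edgeR adjusted p = 0.111) and Bub1 (-0.44, edgeR adjusted p = 0.114) came nearest to a call in that list. Psrc1 was thus higher in libraries whose mitosis genes had a lower summed level, and the part of dividing cells in the values of Psrc1 and Gtse1 was not tested.

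The sestrins are stress proteins that inhibit the growth kinase mTORC1 by binding the GATOR2 complex, and Sesn2 also senses leucine. Sesn1 (chromosome 10, 41706017 to 41809350, plus strand) stood at 95.4, 93.3 and 88.2 CPM in cKO libraries, against 79.7, 89.4 and 77.3 CPM in WT. Only WT library 2 reached into the cKO range, and the log2 fold change was 0.17 (SE 0.114, interval -0.08 to 0.42, edgeR adjusted p = 0.527). Sesn2 (chromosome 4, 139518077 to 139540333, minus strand) stood at 50.1, 56.9 and 40.9 CPM in cKO libraries, against 61.5, 46.4 and 59.0 CPM in WT. Its groups overlapped, with a log2 fold change of -0.18 (SE 0.159, interval -0.52 to 0.17, edgeR adjusted p = 0.652). The upper ends of these intervals lie below the estimates of the 5 genes that rose over 2-fold. The transcript Gm12981 overlaps the Sesn2 gene, so reads could be shared, but it held 17, 10 and 7 counts in cKO and 2, 1 and 2 counts in WT, beside 698 to 988 counts of Sesn2.

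Trp53inp1 encodes a stress protein that promotes autophagy and p53's own activity (chromosome 4, 8217830 to 8235843, plus strand). It stood at 115, 106 and 83.3 CPM in cKO libraries, against 44.4, 43.6 and 42.2 CPM in WT. The WT libraries were close together, and each cKO library was far above them. The log2 fold change was 1.23 (SE 0.139, interval 0.92 to 1.53, edgeR adjusted p = 0.000617).

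Zmat3 and Phlda3 act on RNA and on growth signalling. Zmat3 encodes a zinc-finger protein that binds RNA and changes its stability and splicing (chromosome 3, 31435049 to 31467593, minus strand). It stood at 79.5, 101 and 79.0 CPM in cKO libraries, against 37.3, 36.3 and 48.0 CPM in WT, with no overlap. The log2 fold change was 1.09 (SE 0.154, interval 0.75 to 1.43, edgeR adjusted p = 0.00243). Phlda3 encodes a small protein with a lipid-binding PH domain that competes with the survival kinase AKT for the membrane (chromosome 1, 144578363 to 144581380, plus strand). It stood at 68.4, 128 and 92.0 CPM in cKO libraries, against 55.9, 45.9 and 34.1 CPM in WT. Phlda3 had the widest spread of the 10 genes in both groups: the coefficient of variation was 31.4% in cKO and 24.1% in WT, and cKO library 1 lay close to WT library 1, although the groups did not overlap. The log2 fold change was 1.09 (SE 0.23, interval 0.58 to 1.59, edgeR adjusted p = 0.0261). Its call was lost when cKO library 3 (adjusted p = 0.0937), WT library 2 (0.0941) or WT library 3 (0.14) was left out, and on both log2 FPKM scales.

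**Figure D2:**
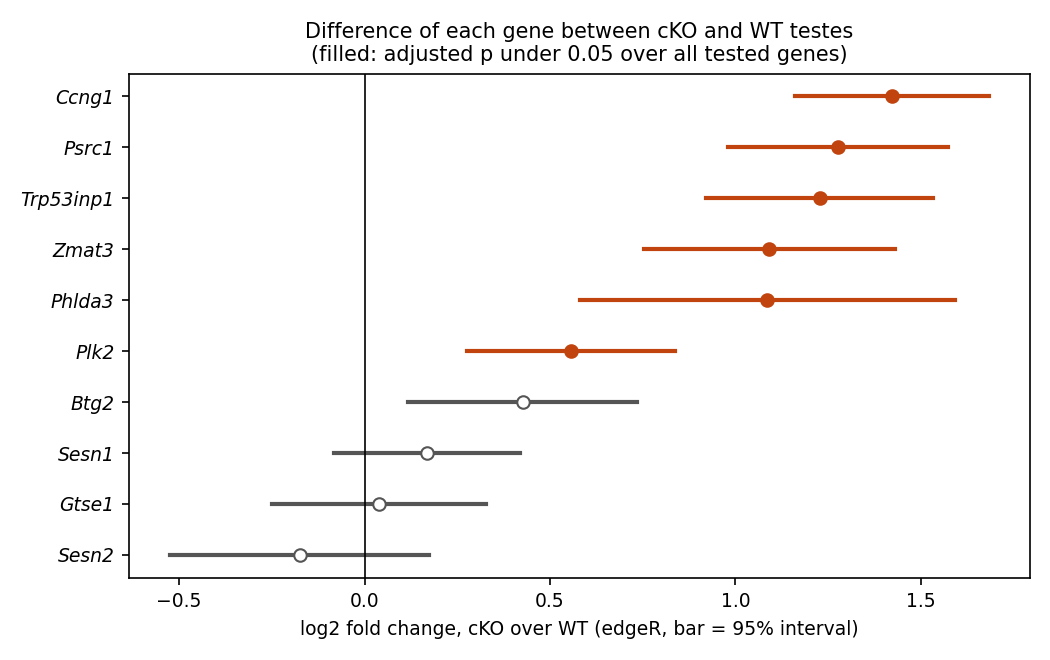
Log2 fold change of each gene, cKO over WT, with its 95% confidence interval from edgeR (3 libraries a group). Filled points passed an adjusted p of 0.05 over all tested genes. The 5 largest estimates run from 1.09 to 1.42, and the intervals of Sesn1, Gtse1 and Sesn2 include 0.

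Among themselves the genes did not rank the libraries of a group alike. On the log2 CPM scale, cKO library 3 was above the cKO mean for 2 of the 10 genes, against 7 each for cKO libraries 1 and 2. The 2 were Plk2 and Gtse1. Among cKO libraries, Ccng1, Phlda3, Sesn2 and Zmat3 were highest in library 2, and Btg2, Psrc1, Sesn1 and Trp53inp1 in library 1. In WT, 6, 5 and 4 of the genes were above the group mean in libraries 1, 2 and 3. Outside the 10, the genes whose log2 CPM followed their mean standardised level most closely over the 6 libraries were Tm7sf3 (Pearson r = 0.995), Ak1 (0.990), Cdkn1a (0.990), Chst3 (0.990) and Rnf149 (0.989). These correlations describe 6 libraries that share the difference between the groups, and Ak1 and Cdkn1a are p53 targets themselves.

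Levels were compared between genes on the deposited FPKM, which are per length. In cKO testes Phlda3 (61.3 ± 19.3 FPKM) and Ccng1 (49.2 ± 4.97 FPKM) were the most abundant, with SDs that overlapped. Sesn1 (27.5 ± 1.10 FPKM), Psrc1 (26.9 ± 2.35 FPKM) and Plk2 (24.2 ± 1.29 FPKM) came next, and Psrc1 did not differ from either neighbour beyond the SDs. Gtse1, Trp53inp1, Sesn2 and Btg2 followed at mean levels of 14.0 to 15.8 FPKM, whose SDs overlapped, and Zmat3 was the least abundant at 7.51 ± 1.10 FPKM. In WT testes the order was another one: Phlda3 (28.7 ± 6.81 FPKM) and Sesn1 (24.4 ± 1.98 FPKM) led with overlapping SDs, Ccng1 stood at 18.3 ± 0.446 FPKM and Plk2 at 16.4 ± 1.75 FPKM, again within their SDs. Sesn2, Gtse1, Psrc1 and Btg2 lay between 15.8 and 10.3 FPKM, and Trp53inp1 (6.63 ± 0.15) and Zmat3 (3.51 ± 0.562) were lowest. The summed FPKM of the 10 genes was 239 to 283 in cKO libraries and 142 to 160.1 in WT libraries. Ccng1 stood at percentile 94.7 of all tested genes by mean FPKM in cKO, against percentile 79.9 in WT, whereas Gtse1 stood at percentile 75.8 in cKO and 75.3 in WT.

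Of 14 tested paralogs of the 10 genes, 1 was higher and none was lower by edgeR, beside 1.50% and 1.84% of all tested genes. At an unadjusted edgeR p under 0.05, 2 paralogs were higher and 3 lower, beside 7.75% and 8.03% of all tested genes. DESeq2 called 1 paralog higher and 1 lower, beside 3.32% and 3.61% over all genes. None was called by limma-voom, and the list median was 0.10. The one called by edgeR was Phlda1, a PH domain gene like Phlda3, at 19.6 ± 5.05 CPM in cKO testes, against 9.70 ± 1.97 CPM in WT (log2 fold change 1.01, edgeR adjusted p = 0.0421). Ccng2, the other G-type cyclin gene, differed by 0.10 (edgeR adjusted p = 0.797), and Trp53inp2 by -0.42 (edgeR adjusted p = 0.163). Among sestrins, Sesn3 differed by 0.34 (edgeR adjusted p = 0.357). Among polo-like kinases, Plk1 differed by -0.57, Plk4 by -0.27, Plk3 by 0.18 and Plk5 by 0.10. Tob1 and Tob2, relatives of Btg2, differed by 0.50 (edgeR adjusted p = 0.12) and -0.07, and the remaining paralogs Zmat1, Zmat4, Zmat5 and Phlda2 by -0.47 to 0.24.

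The ratio of a gene to its paralog within a library needs no scaling between libraries, and 5 such pairs were compared, chosen after their values were seen. On FPKM, the ratio of Ccng1 to Ccng2 was 3.56, 3.09 and 2.49 in cKO and 1.16, 1.05 and 1.46 in WT. The ratio of Trp53inp1 to Trp53inp2 was 0.764, 0.897 and 0.535 in cKO and 0.239, 0.259 and 0.195 in WT. Trp53inp2 itself had a log2 fold change of -0.42 (not called), which adds to the difference in this ratio. Both ratios were higher in every cKO library than in every WT library (exact two-sided permutation p = 0.1, the smallest that 3 against 3 allow, adjusted p = 0.25 over 5 ratios). The ratio of Phlda3 to Phlda1 was 7.93 ± 4.79 in cKO and 7.02 ± 2.55 in WT, that of Plk2 to Plk3 was 5.14 ± 1.04 in cKO and 3.84 ± 0.284 in WT, and that of Sesn1 to Sesn2 was 1.98 ± 0.270 in cKO and 1.58 ± 0.375 in WT (SD, n = 3 each). The groups overlapped in these 3 ratios (exact permutation p = 0.8, 0.2 and 0.3, adjusted p = 0.8, 0.333 and 0.375).

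**Figure D3:**
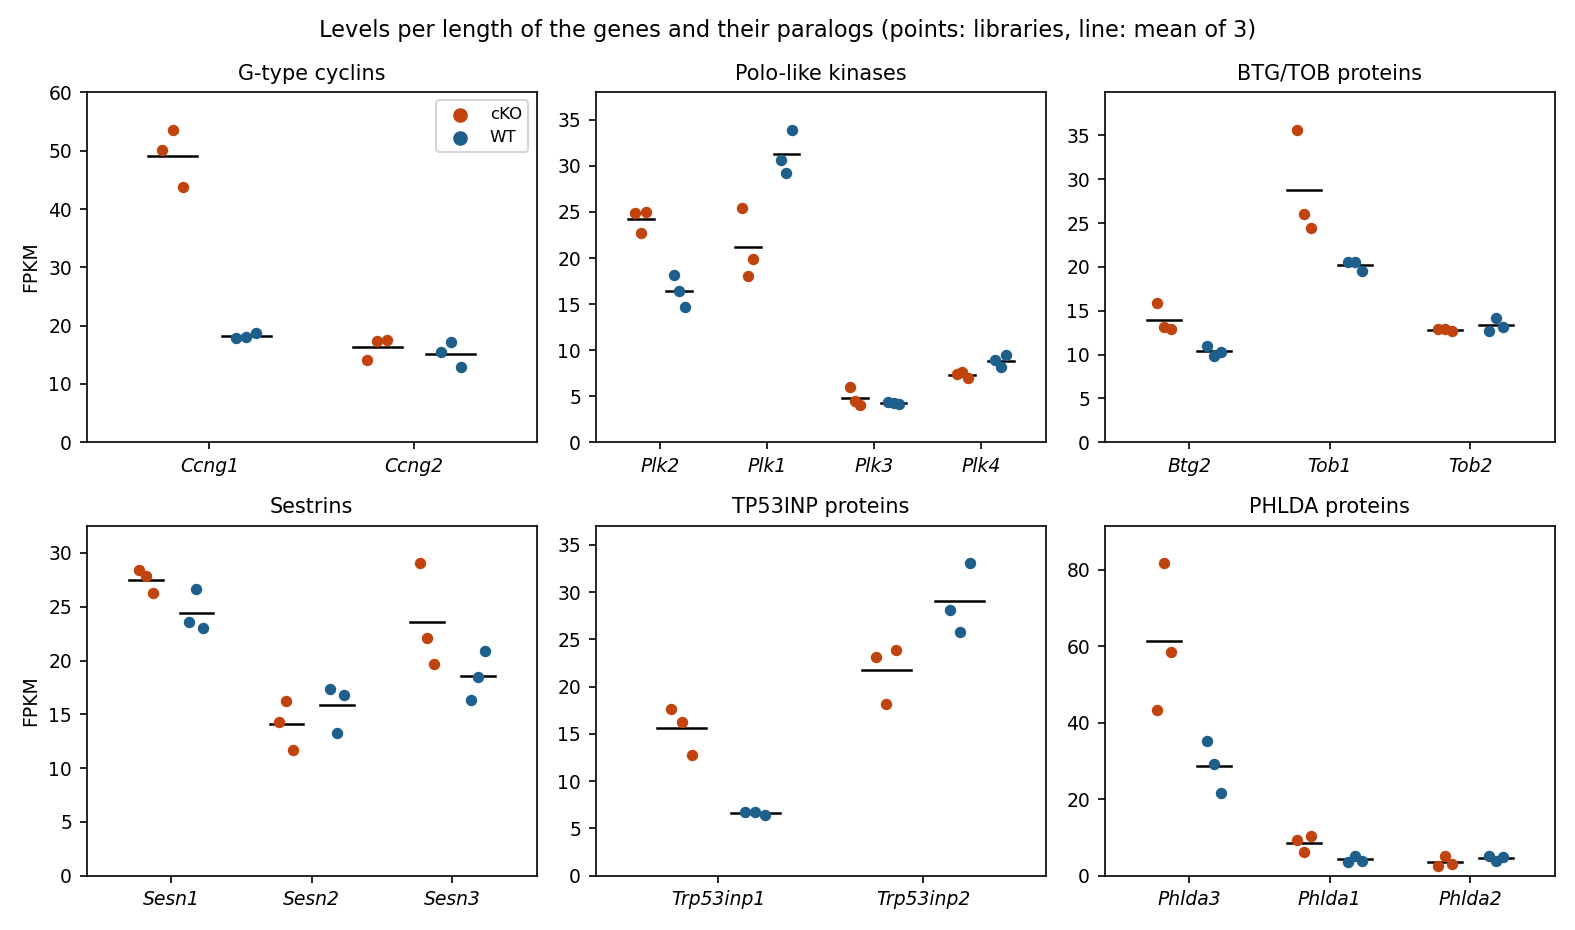
FPKM (per length, linear axis from 0) of 7 of the genes and 10 of their paralogs in each library, cKO left of WT for every gene, with the group mean as a line. Ccng1 is apart between the groups while Ccng2 is not. Trp53inp1 is higher in cKO, whereas Trp53inp2, which was not called, is lower in every cKO library than in every WT library.

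Other p53 target genes, described as a list of 35 tested, were also higher in part. By edgeR 11 were higher in cKO, none was lower and 24 were not called, beside 1.50% higher and 1.84% lower over all tested genes. At an unadjusted edgeR p under 0.05, 16 were higher and none lower, beside 7.75% and 8.03% of all tested genes. DESeq2 called 13 higher and none lower, beside 3.32% and 3.61% over all genes. With limma-voom 11 were higher and none lower, beside 1.46% and 1.82%. The list median was 0.28, in a range of -0.41 to 4.19. Leaving out WT library 1 gave 6 called higher, WT library 2 gave 7 and WT library 3 gave 7. Cdkn1a, the gene of the kinase inhibitor p21, stood at 76.1, 73.7 and 61.2 CPM in cKO libraries, against 5.29, 3.33 and 2.93 CPM in WT (log2 fold change 4.19, edgeR adjusted p = 5.06e-06). Zfp365 (2.81, edgeR adjusted p = 0.000205), the TNF receptor family gene Eda2r (1.85, edgeR adjusted p = 0.000378) and the adenylate kinase gene Ak1 (1.55, edgeR adjusted p = 0.00126) followed by p. All 4 had larger log2 fold changes than Ccng1.

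The list of the p53 gene and its regulators held no called gene, beside 3.35% called by edgeR over all tested genes. At that share a list of this length need not hold any. At an unadjusted edgeR p under 0.05, 7.75% of all tested genes were higher and 8.03% lower. Of the 18 tested genes of this list, none passed in edgeR, limma-voom or DESeq2. At an unadjusted p under 0.05 none of them was higher and 3 were lower, with a list median of -0.08 (range -0.51 to 0.18). Trp53 stood at 95.4, 63.8 and 71.6 CPM in cKO libraries, against 84.8, 75.6 and 85.6 CPM in WT libraries (log2 fold change -0.09, edgeR adjusted p = 0.829). Mdm2, both a regulator and a target of p53, stood at 130 ± 27.4 CPM in cKO testes, against 114 ± 12.2 CPM in WT (0.18, interval -0.16 to 0.53, edgeR adjusted p = 0.631). The acetyltransferase genes Ep300 (-0.51, edgeR adjusted p = 0.190) and Crebbp (-0.50, edgeR adjusted p = 0.199), Daxx (-0.35, edgeR adjusted p = 0.255) and the damage kinase gene Atr (-0.23, edgeR adjusted p = 0.375) came nearest to a call.

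Lists that bear on the other known inputs of these genes each held 0 or 1 gene called by edgeR, beside 3.35% of all tested genes. DESeq2 called 3.32% of all genes higher and 3.61% lower. At an unadjusted edgeR p under 0.05, 7.75% of all tested genes were higher and 8.03% lower. Of 15 immediate early genes, which Btg2 and Plk2 join after growth factor signals, Egr1 was lower (30.9 ± 7.70 CPM in cKO testes, 61.1 ± 17.4 CPM in WT, log2 fold change -0.98, edgeR adjusted p = 0.0391) and none was higher by edgeR (2 higher at an unadjusted p under 0.05, 2 by DESeq2 and 1 by limma-voom). Ier3 (1.0, edgeR adjusted p = 0.0569), Jun (0.38, edgeR adjusted p = 0.0946) and Nr4a1 (-0.39, edgeR adjusted p = 0.151) were next by p, and the list median was 0.12. In that list 3 genes were lower at an unadjusted edgeR p under 0.05, 1 by DESeq2 and 1 by limma-voom. Of 20 genes of the integrated stress response, the pathway of ATF4, the serine synthesis gene Psat1 was higher (89.0 ± 16.1 CPM in cKO testes, 54.6 ± 1.2 CPM in WT, log2 fold change 0.70, edgeR adjusted p = 0.02) and none was lower by edgeR (2 lower at an unadjusted p under 0.05, 1 by DESeq2 and none by limma-voom). Atf3 (0.99, edgeR adjusted p = 0.106), Cebpb (0.73, edgeR adjusted p = 0.111) and Ppp1r15a (-0.42, edgeR adjusted p = 0.163) were not called, and the list median was 0.02. Of 25 sestrin partners and regulators of mTORC1, none passed in edgeR, limma-voom or DESeq2 (2 higher, 2 lower by an unadjusted p under 0.05), the list median was -0.04, and Mtor (-0.43, edgeR adjusted p = 0.167), Castor1 (0.80, edgeR adjusted p = 0.197), Nfe2l2 (0.39, edgeR adjusted p = 0.238) and Tsc1 (-0.26, edgeR adjusted p = 0.283) came nearest to a call.

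**Figure D4:**
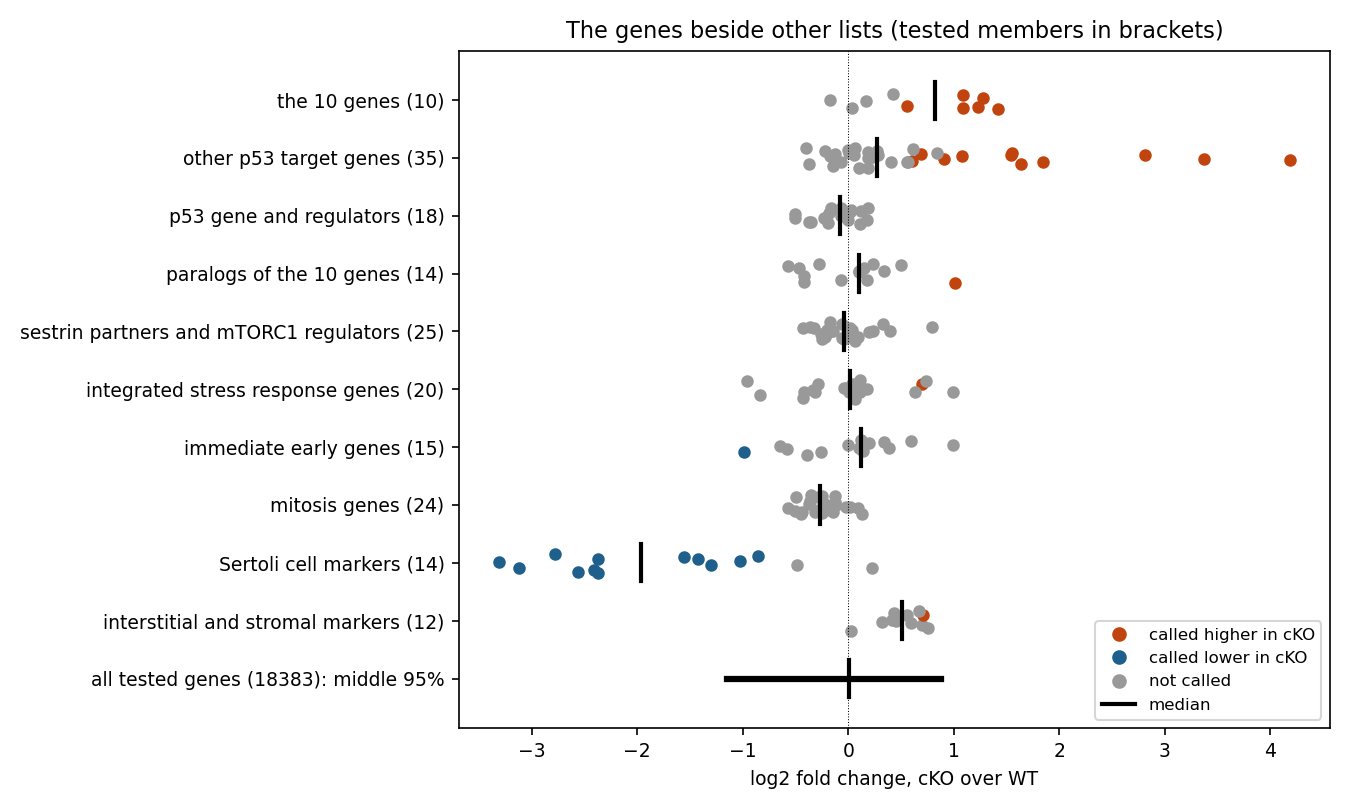
Log2 fold changes, cKO over WT, of the 10 genes and of the tested genes of 9 other lists, coloured by call, with each list's median as a black line. The lowest row gives the middle 95% of all 18383 tested genes, from -1.15 to 0.88. The median of the 10 genes is 0.82 and that of the other p53 target genes 0.28.

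Markers of the cell types of the organ also differed between the groups. Over all genes, edgeR called 1.50% higher and 1.84% lower, DESeq2 3.32% and 3.61%, and limma-voom 1.46% and 1.82%. At an unadjusted edgeR p under 0.05 the shares were 7.75% and 8.03%. Of 14 Sertoli cell markers 12 were lower in cKO and none was higher by edgeR. DESeq2, limma-voom and the unadjusted p each gave 13 lower and none higher. The summed level of the 14 was 1288 to 1762 CPM in cKO testes, against 3197 to 4178 CPM in WT. All 14 passed the filter on low counts. The most abundant over the 6 libraries were Clu, at 507 ± 43.2 CPM in cKO testes, against 919 ± 177 CPM in WT, and Amh, the anti-Müllerian hormone gene, at 168 ± 101 CPM in cKO testes, against 897 ± 239 CPM in WT. The 2 not called by edgeR, named after their values were seen, were Gata4, at 314 CPM in cKO testes on average, against 439 CPM in WT, and Wt1, at 200.2 CPM in cKO testes, against 171 CPM in WT. Gata4 was lower in every cKO library than in every WT library (log2 fold change -0.48, edgeR adjusted p = 0.0579). Wt1 was higher in every cKO library (0.23, edgeR adjusted p = 0.37). In cKO testes the mean CPM of Gata4 and of Wt1 was above that of Amh. On FPKM, which are per length, the cKO mean of Amh was above those of Gata4 and Wt1. Of 12 interstitial and stromal markers 1 was called higher by edgeR and 10 were higher at an unadjusted p under 0.05 (5 higher by DESeq2, 1 by limma-voom), with a summed level of 17040 to 27838 CPM in cKO testes, against 11681 to 18600 CPM in WT, led by the collagen genes Col1a1 (8047 ± 2968 CPM in cKO testes, 4954 ± 1415 CPM in WT) and Col1a2. The one called was Lum. Of 10 Leydig cell markers 2 were higher by edgeR, Fdx1 and Por (these 3 named after their values were seen), 4 by DESeq2 and 3 by limma-voom. At an unadjusted p under 0.05, 6 Leydig cell markers were higher, and all 10 had a positive log2 fold change. Their summed level was 6432 to 8479 CPM in cKO libraries, against 4848 to 5776 CPM in WT libraries, without overlap. The abundant steroid enzyme genes Cyp17a1 (0.25, edgeR adjusted p = 0.553) and Cyp11a1 (0.59, edgeR adjusted p = 0.0636) were not called. Of 10 tested germ cell markers none was called by edgeR or limma-voom and 1 was lower by DESeq2 (2 lower at an unadjusted p under 0.05). Only 1 of the 10 had a positive log2 fold change, and the list median was -0.34. Their summed level was 820 to 1471 CPM in cKO libraries, against 1303 to 1769 CPM in WT libraries, with overlap. The part of cell composition in the levels of the 10 genes was not tested.

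Ccng1, Psrc1, Trp53inp1 and Zmat3 were called higher in each of 16 alternative fits, which changed the scaling, the test, the unit, the filter or the libraries used. Over these fits the log2 fold change ran from 1.36 to 1.5 for Ccng1, from 1.21 to 1.39 for Psrc1, from 1.11 to 1.35 for Trp53inp1 and from 0.92 to 1.23 for Zmat3. Phlda3 was called in 11 of them and Plk2 in 8, while Btg2, Sesn1, Sesn2 and Gtse1 were called in none.

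**Figure D5:**
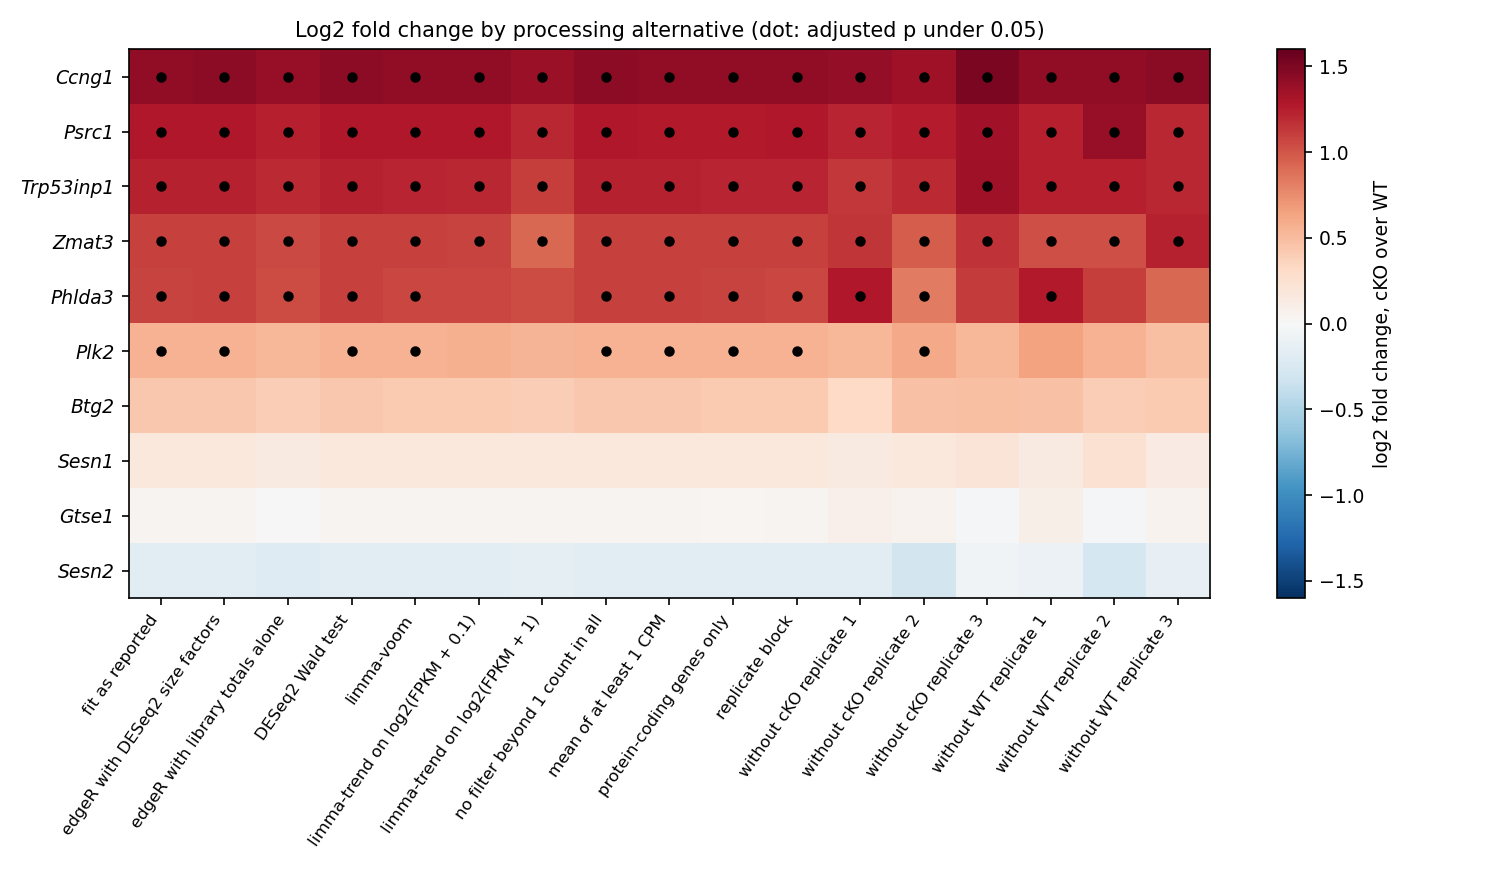
Log2 fold change, cKO over WT, of each gene (rows) in the fit as reported and in 16 alternatives (columns), on a colour scale from blue (lower in cKO) to red (higher in cKO), with a dot where the adjusted p was under 0.05. The upper 4 genes keep a dot in every column, and the lower 4 have none.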

How the data were processed

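The deposited counts are whole numbers per gene with differing library totals and were used as raw counts, and the deposited FPKM values are given per library, per the file headers. The submitters' processing notes name HISAT2 2.0.5 and GRCm38, whereas no source used here gives the counting tool or its strand setting. Gene identifiers in the tables are those of the C57BL/6NJ strain annotation, so gene coordinates are given in that assembly and promoter coordinates in GRCm38.p6 (RefSeq). The fit used edgeR 4.0.16 in R 4.3.3 on genes kept by filterByExpr, with TMM scaling, glmQLFit and glmQLFTest and no covariate. SEs are the absolute log2 fold change divided by the square root of F. Alternatives used DESeq2 1.42.0 and limma 3.58.1. Library totals were 15092619 to 17431546 counts, and tested genes had a median of 282 to 329 counts per library.

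The 10 genes and all lists were chosen with earlier results of these data known, and the promoter motifs and the 5 paralog pairs after the sequences and values were seen. Lists held 245 symbols, of which 234 were matched, 3 of them by a synonym in the RefSeq gene table. Named genes were the 10, Trp53, Mdm2, Cdkn1a, Csnk1a1, all tested paralogs, up to 4 genes of each pathway list by p, the top 2 markers of a cell type by level, and the 5 genes most like the 10. By edgeR, the lists of myoid markers and of adrenal and mesonephric markers each held 1 gene called higher and 1 called lower, those of endothelial and erythroid markers 1 called higher each, and that of macrophages none (1 higher at an unadjusted p under 0.05, none by DESeq2 or limma-voom). On simulated data of the cKO against WT comparison (18383 genes, 200 changed), edgeR recovered 49% of genes changed by 1 and 82% of those changed by 2 on the log2 scale, with 9 unchanged genes among 140 calls. No libraries of a group agreed within counting noise (chi-square from 13.6 to 40.9 per degree of freedom). Such spread does not show whether they come from separate animals, and each was taken as 1 replicate from the series design. Promoters were also searched on both strands for CCAAT (found in 37.4% of all and in 9 of the 11 of these genes, all but those of Phlda3 and Plk2), for the element TTTGAA (in 17.9% of all and none of the 11) and for its variant TTCGAA (in 1.56% of all and in the 2 of Psrc1, whose windows overlap).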

Additional observations from a re-analysis of the deposited data

How the results depend on the processing

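With 3 libraries a group, genes that change by less than about 2-fold are often missed, and the intervals of Btg2, Sesn1, Gtse1 and Sesn2 leave smaller changes undecided. Of 160 values of single genes, 145 kept direction and side of the threshold, 13 lost a call (Plk2 and Phlda3) and 2 turned direction (Gtse1, -0.023 without cKO library 3 and -0.022 without WT library 2, in a range of -0.023 to 0.093 with 1 library left out). The cause was not tested. The count of the 10 genes called higher was 4 to 6 in all alternatives, and none was called lower in any. Over the whole table, counts of genes higher and lower were 527 and 574 by DESeq2, 149 and 223 on log2(FPKM + 0.1), 156 and 241 on log2(FPKM + 1), and 613 and 651 with no filter beyond 1 count, where 31962 genes were tested. With 1 library left out they ran from 105 to 342 higher and from 167 to 399 lower, and the other p53 target genes called higher from 6 to 11. The median of all genes moved by -0.051 on the log2 scale with no filter beyond 1 count, the largest shift among the alternatives. Replicate numbers are shared by the groups but gave correlations of same-numbered deviations of 0.0172, 0.184 and 0.0325, so they were not taken as pairs; with the replicate block, 6 of the 10 genes, 13 other p53 target genes, 324 genes in all higher and 372 lower were called.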
